A study of Mus musculus and Homo sapiens with 24 samples.

Results

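The genes described here were 6 human genes, RELN, MUC19, MYO16, ADD2, TFRC and OSBPL6, out of 17936 genes tested in K-562 cells. They were chosen by their own values in these libraries, as genes higher in TET2 knockout (KO) than in wild-type (WT) cells under a control hairpin and lowered by knockdown (KD) of MBD6 in the KO cells. Of the 6 genes, 5 had both differences and OSBPL6 had only the first, so OSBPL6 did not meet the rule and is reported beside the others as the gene that was not lowered. K-562 is a human cell line from a chronic myeloid leukaemia with erythroid features. Polyadenylated RNA was sequenced from 4 groups with 3 libraries each. TET2WT-shControl and TET2WT-shMBD6 were WT cells with a control hairpin or a hairpin against MBD6, TET2KO-shControl and TET2KO-shMBD6 were TET2 KO cells with the same hairpins, and the growth protocol of the labels gives 1 μg/mL puromycin. The sources differ on the reagent, since the labels name hairpins (shControl, shMBD6) while the sample sheet of the study names these polyA RNA samples siNC and siMBD6, and its methods hold both a lentiviral hairpin and siRNAs. The names of the labels are used, hairpin stands for whichever was given, and an effect of the reagent on other transcripts cannot be told apart from the loss of MBD6. The KO line was a gift to the study, and whether it was 1 clone is not given in the sources used here, so a difference between 2 lines cannot be told apart from the loss of TET2. The study calls the genome-wide data in its K-562 figure biological replicates, but whether the 3 RNA libraries of a group came from separate cultures is not stated, so the p-values measure only the spread between these libraries, which may be technical.

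TET2 is an enzyme that oxidises 5-methylcytosine, in DNA at CpG sites and, as this study examined, in RNA bound to chromatin. MBD6 is a protein with a methyl-CpG-binding domain that works with a deubiquitinase of histone H2A. Loss-of-function mutations of TET2 are frequent in myeloid leukaemia. The 6 genes belong to no common pathway. RELN encodes reelin, a large secreted glycoprotein known for guiding neurons, and MUC19 encodes a gel-forming mucin. MYO16 encodes an unconventional myosin and ADD2 encodes beta-adducin, which caps actin filaments in the membrane skeleton of red cells. TFRC encodes transferrin receptor 1, through which erythroid and dividing cells take up iron, and OSBPL6 encodes a lipid-binding protein of the oxysterol-binding protein family.

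The letters around the start sites are shown for the genes with the most and the fewest CpG sites among the 6, since CpG is the DNA context in which TET2 acts. Each stretch is the 150 bases upstream of the canonical start in GENCODE release 44, read from hg38, 5′ to 3′ on the strand of the gene, with CpG in capitals. They are chr7:103989659-103989808 (minus strand) for RELN, chr12:40393298-40393447 (plus strand) for MUC19, chr13:108629461-108629610 (plus strand) for MYO16 and chr2:178194362-178194511 (plus strand) for OSBPL6.
RELN: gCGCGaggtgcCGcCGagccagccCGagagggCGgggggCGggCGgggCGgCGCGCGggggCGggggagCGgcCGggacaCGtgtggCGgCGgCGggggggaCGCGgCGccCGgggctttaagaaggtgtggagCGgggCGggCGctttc
MUC19: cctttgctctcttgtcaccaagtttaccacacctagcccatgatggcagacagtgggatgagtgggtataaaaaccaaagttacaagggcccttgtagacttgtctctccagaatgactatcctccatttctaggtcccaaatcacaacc
MYO16: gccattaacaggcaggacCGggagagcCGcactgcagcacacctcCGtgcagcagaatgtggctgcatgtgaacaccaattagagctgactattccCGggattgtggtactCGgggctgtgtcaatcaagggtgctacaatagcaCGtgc
OSBPL6: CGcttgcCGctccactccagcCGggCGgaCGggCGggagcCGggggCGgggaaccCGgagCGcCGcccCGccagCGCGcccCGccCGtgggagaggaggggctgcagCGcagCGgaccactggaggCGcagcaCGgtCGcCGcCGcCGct
In these stretches RELN held 26 CpG, OSBPL6 24, MYO16 6 and MUC19 0. Counts per gene do not tell which start site K-562 cells used, and no methylation was measured in these libraries.

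Over the longer window from 250 bases upstream to 50 bases downstream, RELN had 52 CpG, more than 98.5% of 13102 promoters of tested protein-coding genes, for which the median was 27 and the quartiles were 19 and 35. OSBPL6 had 41, TFRC 37 and ADD2 34, more than 87.2%, 79.0% and 71.1% of promoters. MYO16 had 9, more than 10.3%, and MUC19 had 0. The genes therefore ran from a CpG-rich start to one with no CpG at all. The letters GGGCGG, searched on both strands, occurred 6 times at RELN and OSBPL6, 5 times at ADD2 and 3 times at TFRC, and 72.4% of promoters held them. TATAAA occurred once at MUC19 and TFRC, and 5.63% of promoters held it. AGATAA, the core of a GATA motif, occurred once at MYO16 (5.19% of promoters), and TGATAA at none of the 6 (3.47% of promoters). CANNTG, the E-box, occurred 3 times at MYO16 and once each at RELN, TFRC and OSBPL6 (59.2% of promoters). These matches describe letters and name no bound factor.

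The targeted genes were read first. MBD6 had 81.6, 88.4 and 77.3 CPM (read counts scaled to library size, with sizes normalised by TMM) in TET2WT-shControl and 38.9, 38.2 and 36.8 CPM in TET2WT-shMBD6. It had 73.4, 75.9 and 82.3 CPM in TET2KO-shControl and 43.5, 43.9 and 42.4 CPM in TET2KO-shMBD6. MBD6 had a lower CPM in every shMBD6 library than in every shControl library, with a log2 fold change of -1.12 (SE 0.054) in WT and -0.84 (SE 0.054) in KO cells by TMM, and of 0.02 (adjusted p = 0.75) and -0.66 by ERCC scaling, which moved the median gene too. TET2 transcripts stood at 28.4 to 33.6 CPM in TET2WT-shControl and 32.7 to 34.1 CPM in TET2KO-shControl, so gene counts did not check the KO genotype. The 12 libraries held 27625013 to 39877202 gene counts. The summed level of 15 erythroid identity markers was 2801 to 2892 CPM in TET2WT-shControl, 3735 to 4028 in TET2WT-shMBD6, 1385 to 1423 in TET2KO-shControl and 1523 to 1540 in TET2KO-shMBD6, and 14 of the 15 averaged at least 1 CPM in each group. The share of reads counted on no annotated feature was 13.2% to 13.8% in TET2KO-shControl, where most of the 6 genes peaked, and 10.4% to 12.1% in the other groups. Whether these reads lay between genes or in introns was not read. The part of either in the results was not tested. The share of reads on the ERCC spike-in RNAs was 0.865% to 0.874% in TET2WT-shControl against 0.319% to 0.395% in the other groups.

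RELN (ENSG00000189056.13, hg38 chromosome 7, 103471381 to 103989658, minus strand) had 56.7, 48.2 and 51.5 CPM in TET2WT-shControl and 31.7, 31.5 and 33.3 CPM in TET2WT-shMBD6. It had 192, 193 and 198 CPM in TET2KO-shControl and 54.8, 59.8 and 60.8 CPM in TET2KO-shMBD6. TET2KO-shControl stood far above the rest, TET2WT-shMBD6 was the lowest group, and the libraries of TET2KO-shMBD6 and TET2WT-shControl overlapped. The KO libraries were 3.74-fold above WT under shControl (log2 1.90, SE 0.053) and MBD6 KD lowered the KO level by a log2 fold change of -1.73 (SE 0.052). Of the 142 CPM gained, 136 CPM (95.6%) were lost, as means of 3 libraries. These differences chose the gene and carry no test. In RNA from whole cultures, a change in the share of cells that express a gene cannot be told apart from a change per cell. Neuronal genes, the class RELN is best known with, were mostly low. Of 10 neuronal markers 2 averaged at least 1 CPM in each group, DCX and NEFL were at 0 in all 12 libraries, and their sum was 17.9 to 22.0 CPM in TET2WT-shControl, 20.2 to 23.0 in TET2WT-shMBD6, 25.5 to 27.4 in TET2KO-shControl and 41.6 to 41.7 in TET2KO-shMBD6.

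MUC19 (ENSG00000205592.14, chromosome 12, 40393395 to 40570832, plus strand) had the largest gain of the 6. It had 5.40, 6.32 and 5.60 CPM in TET2WT-shControl and 7.86, 8.50 and 7.25 CPM in TET2WT-shMBD6. It had 179, 186 and 189 CPM in TET2KO-shControl and 78.4, 78.8 and 75.4 CPM in TET2KO-shMBD6. No 2 groups overlapped, and both KO groups stood far above both WT groups. The KO level was 31.7-fold the WT level under shControl (log2 4.99, SE 0.062), and the KD brought it to 0.420 of that (log2 -1.25, SE 0.047). Some 107 of 179 CPM gained (59.9%) were lost, and the level in TET2KO-shMBD6 was still 13.3-fold that of TET2WT-shControl.

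MYO16 (ENSG00000041515.15, chromosome 13, 108596152 to 109208005, plus strand) had 13.7, 13.9 and 14.1 CPM in TET2WT-shControl and 7.74, 6.57 and 6.47 CPM in TET2WT-shMBD6. It had 48.1, 49.8 and 45.3 CPM in TET2KO-shControl and 14.3, 14.6 and 13.1 CPM in TET2KO-shMBD6. The order was that of RELN, with the lowest level in TET2WT-shMBD6 and an overlap of TET2KO-shMBD6 with TET2WT-shControl. The gain was 3.43-fold (log2 1.78, SE 0.076) and the loss in KO cells was -1.77 (SE 0.076) on the log2 scale, so that 99.8% of the CPM gained were lost. The canonical start of MYO16, next to base 108629610, lies far inside the annotated gene, which begins at 108596152. The CpG counts of MYO16 belong to this inner start. The canonical starts of MUC19, ADD2, TFRC and OSBPL6 also lie inside their genes, but much nearer the first annotated base.

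ADD2 (ENSG00000075340.22, chromosome 2, 70607618 to 70768225, minus strand) had 61.9, 63.6 and 60.8 CPM in TET2WT-shControl and 69.9, 68.5 and 71.1 CPM in TET2WT-shMBD6. It had 132, 129 and 136 CPM in TET2KO-shControl and 78.3, 77.0 and 73.6 CPM in TET2KO-shMBD6. The 4 groups did not overlap, and the 3 lower ones lay close together. The gain was 2.13-fold (log2 1.09, SE 0.040) and the loss was -0.80 (SE 0.039), so that 79.8% of the CPM gained were lost. ADD2 is an erythroid gene, but by TMM it was highest in the group in which the 15 erythroid identity markers had their lowest sum. That sum was not read under ERCC scaling.

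TFRC (ENSG00000072274.12, chromosome 3, 196012511 to 196082153, minus strand) had the highest level and the smallest gain of the 6. It had 311, 307 and 311 CPM in TET2WT-shControl and 285, 288 and 274 CPM in TET2WT-shMBD6. It had 453, 465 and 453 CPM in TET2KO-shControl and 280, 287 and 283 CPM in TET2KO-shMBD6. Both shMBD6 groups overlapped and lay below TET2WT-shControl, and TET2KO-shControl stood apart. The gain was 1.48-fold (log2 0.56, SE 0.029) and the loss was -0.69 (SE 0.029). The CPM lost came to 118% of the CPM gained. TFRC was the only one of the 6 whose level in TET2KO-shMBD6 lay below TET2WT-shControl in every library, a difference of -0.13 (SE 0.029) on the log2 scale that turned to 1.31 when libraries were scaled by the ERCC spike-ins.

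OSBPL6 (ENSG00000079156.16, chromosome 2, 178194481 to 178402893, plus strand) had 2.10, 1.73 and 1.496 CPM in TET2WT-shControl, from 58, 69 and 43 counts, and 7.38, 7.74 and 8.35 CPM in TET2WT-shMBD6. It had 41.5, 43.6 and 42.0 CPM in TET2KO-shControl and 44.6, 44.5 and 45.2 CPM in TET2KO-shMBD6. Every step upwards in this order was free of overlap, and the TET2KO-shMBD6 libraries were the highest, not lowered. The gain in KO cells was 23.9-fold (log2 4.58, SE 0.095). The difference with MBD6 KD in KO cells was 0.08 (SE 0.066, 95% interval -0.06 to 0.22) on the log2 scale, and 0.26 under ERCC scaling. A lowering by more than 0.06 on the log2 scale thus lay outside the interval.

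**Figure D1:**
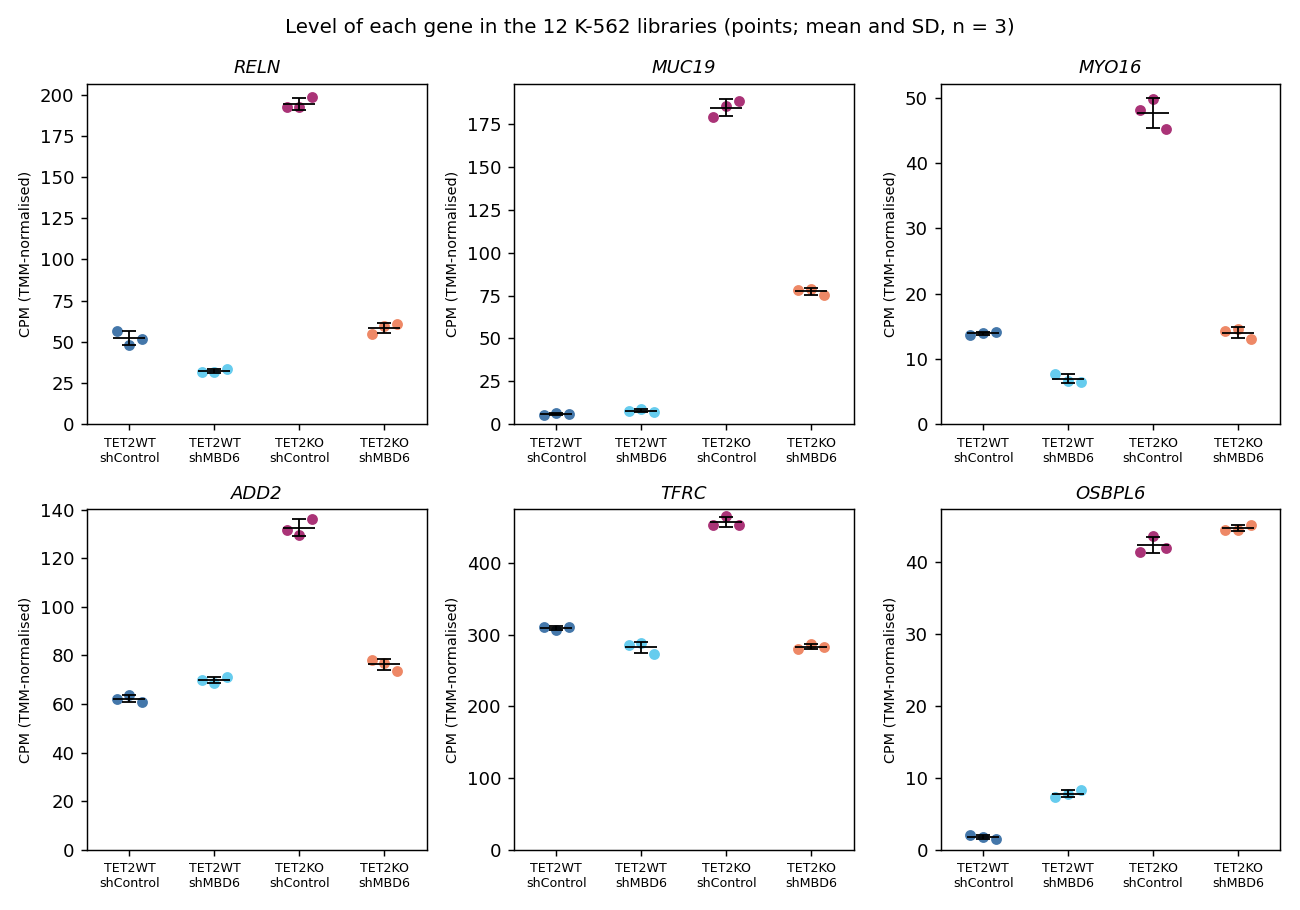
Level of each gene in CPM (linear y axis from 0) in the 12 K-562 libraries, as points by group with the mean and SD of 3 libraries in black. TET2KO-shControl was the highest group for RELN, MUC19, MYO16, ADD2 and TFRC, and TET2KO-shMBD6 was the highest for OSBPL6.

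Across all genes, 22.2% were called higher and 20.7% lower in KO than WT cells under shControl (quasi-likelihood test of edgeR, adjusted p under 0.05 over all genes), and all 6 listed genes were higher. With MBD6 KD in KO cells 18.5% were called higher and 16.3% lower, and 5 of the 6 were lower. Both calls together were met by 990 genes, 5.52% of those tested and 24.9% of the 3973 that were higher in KO cells. A further 776 of the 3973 were raised by the KD in KO cells and 2207 were not called, OSBPL6 among the latter. Among the 990 genes the median gain was 0.44 and the median loss -0.35 on the log2 scale, and 102 moved at least 2-fold both ways. RELN ranked 96 by gain and 51 by loss, MUC19 19 and 86, MYO16 110 and 48, ADD2 186 and 181, and TFRC 384 and 223. By TMM the loss amounted to 122.8% of the gain on the log2 scale for TFRC, 99.5% for MYO16, 91.2% for RELN, 72.9% for ADD2 and 25.1% for MUC19. The median over the 990 was 84.8% (quartiles 52.9% and 125.6%). Under ERCC scaling the gains were 1.82 for TFRC, 3.04 for MYO16, 3.16 for RELN, 2.35 for ADD2 and 6.24 for MUC19. The losses there were -0.51, -1.59, -1.55, -0.61 and -1.07 in that order. Each was a smaller part of the gain than by TMM. The comparisons share the TET2KO-shControl libraries, so a chance high value there adds to both.

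The effect of the hairpin in WT cells was not itself used to choose the genes. It shares the TET2WT-shControl libraries with the choice, which favours low values there and so adds to a rise with the hairpin. The values are therefore a description with no test. By TMM all 6 genes were called, 3 in each direction, against 20.4% of all genes called higher and 19.2% lower. ERCC scaling gave 5 of the 6 higher and 0 lower, against 15437 higher and 38 lower of all 17936 genes. OSBPL6 rose most, from 1.78 ± 0.31 (SD, n = 3) to 7.82 ± 0.49 CPM (log2 2.14, SE 0.107). MUC19 rose by 0.44 (SE 0.078) and ADD2 by 0.17 (SE 0.041), both of which fell in KO cells. MYO16 had a log2 fold change of -1.01 (SE 0.085), which turned to 0.13, not called, under ERCC scaling. RELN had -0.69 (SE 0.056) and TFRC -0.13 (SE 0.029), which turned to 0.45 and 1.01 under ERCC scaling. For each of the 6 genes the groups were free of overlap in CPM in this comparison. The share of all tested genes without such overlap is not given here, so this says nothing particular about the 6.

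ERCC scaling sets each library by its spike-in reads and shifted the median gene by 1.13 (log2) for the hairpin in WT cells, 0.18 for the hairpin in KO cells and 1.26 for KO against WT under shControl. Relative to that median the 6 genes kept their values, with RELN at -0.68, MYO16 at -0.997 and TFRC at -0.12 for the hairpin in WT cells. In KO cells the 5 lowered genes lay between -0.51 and -1.59 under ERCC scaling as such. The counts of genes that rose and fell in WT cells thus depended on the scale, and the lowering of the 5 in KO cells did not change direction with it. Whether the spike-in share reflected RNA per cell or the amount added cannot be told apart.

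**Figure D2:**
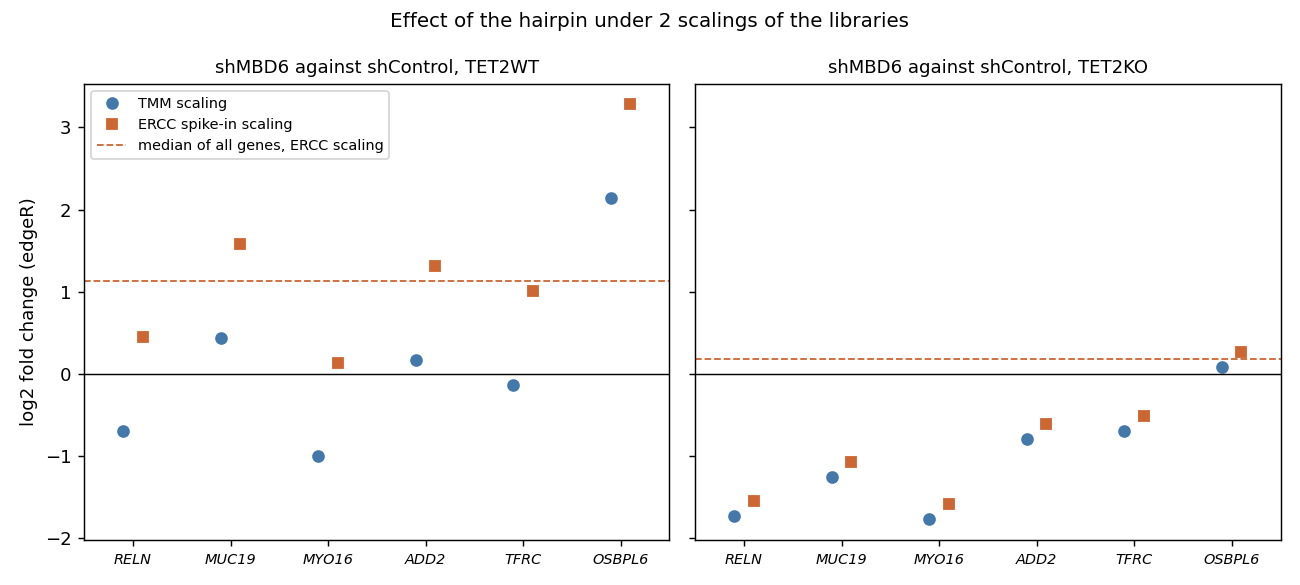
Log2 fold change (y axis) of shMBD6 against shControl for each gene, in TET2WT (left) and TET2KO (right), with TMM scaling (circles) and ERCC scaling (squares). The dashed line is the median of all genes under ERCC scaling, 1.13 on the left and 0.18 on the right, and RELN, MYO16 and TFRC changed sign on the left.

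The difference between KO and WT cells under shMBD6 was read in the same fit. Since the choice of the genes used the TET2KO-shMBD6 libraries, the values are a description with no test. Of the 6 genes 5 were called higher in KO cells, beside 22.9% of all genes called higher and 21.6% lower. MUC19 was 9.84-fold higher (log2 3.30, SE 0.059) and OSBPL6 5.72-fold (log2 2.52, SE 0.075). MYO16 was 2.02-fold higher (log2 1.02, SE 0.084) and RELN 1.82-fold (log2 0.86, SE 0.055). ADD2 differed by 0.13 (SE 0.040), a call that was lost, at 0.11, without TET2WT-shMBD6 replicate 2, without TET2KO-shMBD6 replicate 1 and without the filter on low counts. TFRC differed by 0.0036 (95% interval -0.06 to 0.06), and by 0.30 under ERCC scaling, close to the median shift of 0.31.

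The genotype by hairpin interaction, the log2 effect of the hairpin in KO cells less that in WT cells, uses all 4 groups and is given without a test. It was -2.06 (SE 0.127) for OSBPL6, -1.69 (SE 0.091) for MUC19, -1.04 (SE 0.076) for RELN, -0.96 (SE 0.057) for ADD2, -0.76 (SE 0.114) for MYO16 and -0.56 (SE 0.041) for TFRC. The value for OSBPL6 came from its rise in WT cells, not from a fall in KO cells. The 6 genes fell into 3 patterns by their values. RELN, MYO16 and TFRC were lower with shMBD6 in both genotypes by TMM, MUC19 and ADD2 were higher in WT and lower in KO cells, and OSBPL6 was higher in WT cells and near level in KO cells. Of the 990 genes with both calls, 346 were called lower and 166 higher with the hairpin in WT cells and 478 were not called.

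**Figure D3:**
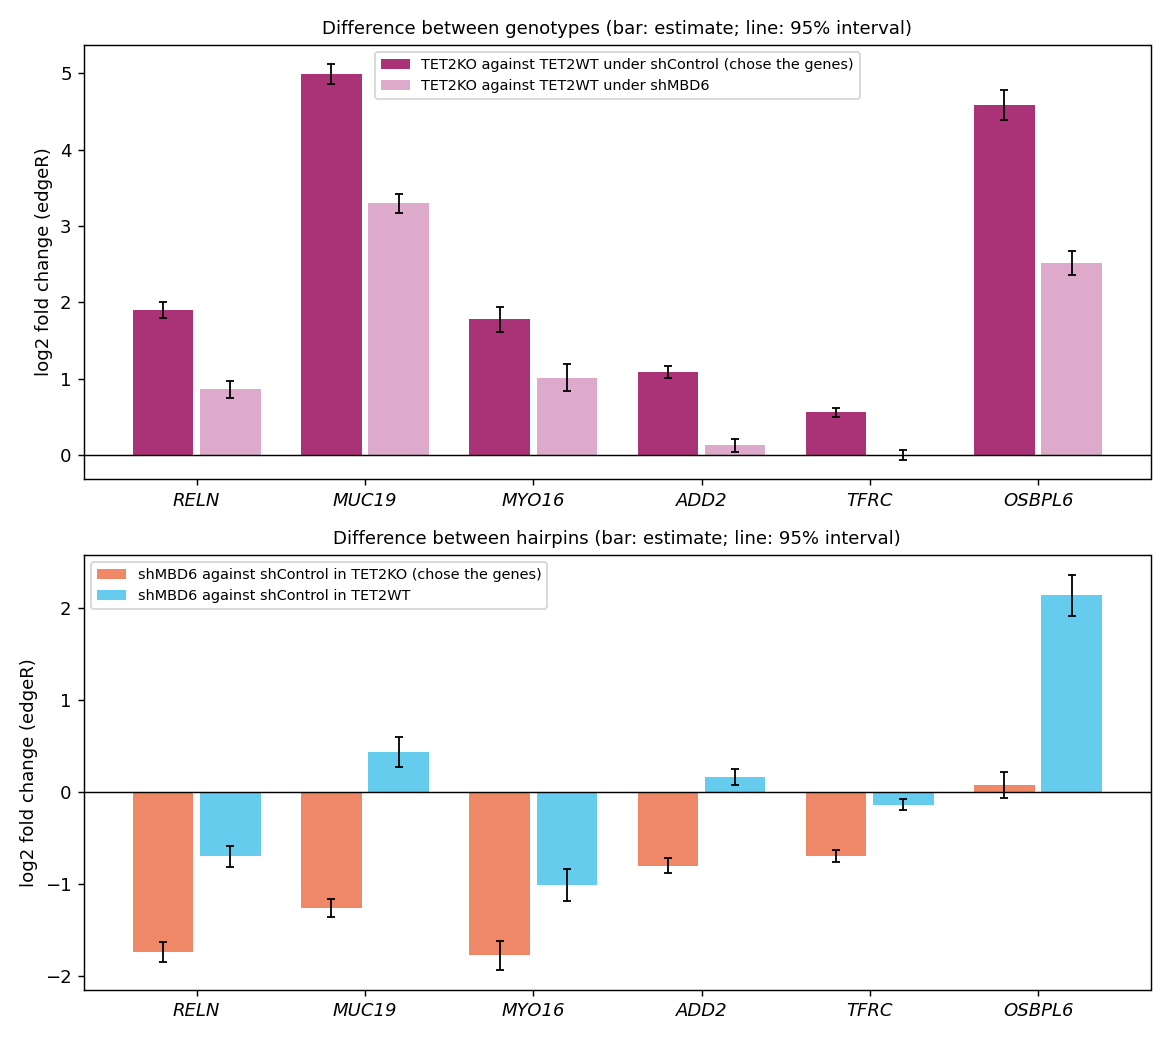
Log2 fold change (y axis, bars from 0, lines for the 95% interval) of each gene between genotypes (upper panel) and between hairpins (lower panel), with TMM scaling. In the lower panel MUC19 and ADD2 had bars of opposite sign in the 2 genotypes, and OSBPL6 had a bar of 2.14 in TET2WT and 0.08 in TET2KO, while RELN, MYO16 and TFRC turned positive in TET2WT under ERCC scaling.

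Levels between genes were compared per kilobase of exon. In TET2KO-shControl TFRC stood at 26.3 CPM per kb, ADD2 at 10.5, MUC19 at 6.26, RELN at 5.49, MYO16 at 5.41 and OSBPL6 at 3.69. In TET2WT-shControl the order was TFRC at 17.8, ADD2 at 4.90, MYO16 at 1.58, RELN at 1.47, MUC19 at 0.196 and OSBPL6 at 0.155 CPM per kb. MUC19 thus moved from near the bottom to the third place. The genes were long. MYO16 spans 612 kb, RELN 518 kb, OSBPL6 208 kb, MUC19 177 kb, ADD2 161 kb and TFRC 69.6 kb, against a median of 23.7 kb over 17831 tested genes and 49.8 kb over the 990.

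Genes around and within the 6 were read for reads shared between neighbours. All annotated genes that overlap them and were counted averaged under 0.1 CPM in every group. The nearest tested gene below MUC19 was LRRK2, 24.1 kb away and on the same strand, a kinase gene that moved the same way. It had 2.75 ± 0.16, 2.26 ± 0.13, 10.2 ± 1.36 and 5.42 ± 0.51 CPM (SD, n = 3) in TET2WT-shControl, TET2WT-shMBD6, TET2KO-shControl and TET2KO-shMBD6. Its log2 fold change was 1.89 (SE 0.133, adjusted p = 2.4e-10 by edgeR) for KO against WT under shControl and -0.91 (SE 0.123, adjusted p = 7.0e-06) for the hairpin in KO cells. RBM45, 55.5 kb below OSBPL6, rose by 0.33 (SE 0.073) in KO cells and fell with the hairpin there (-0.31, SE 0.072, or -0.12 with adjusted p = 0.22 under ERCC scaling), whereas CHROMR, a long non-coding RNA 10.7 kb above it, rose by 0.84 (SE 0.133) in KO cells and had -0.21 (SE 0.127, adjusted p = 0.23) with the hairpin. LINC00885, 60.4 kb above TFRC, was lower with the hairpin in both genotypes (-1.15, SE 0.109, in WT and -0.95, SE 0.110, in KO cells by TMM, and -0.0064 and -0.77 by ERCC scaling). Beside RELN, PSMC2 had 0.21 (SE 0.033) in KO cells and 0.19 (SE 0.033) with the hairpin there, and ORC5 had 0.56 (SE 0.063) and -0.12 (SE 0.062, adjusted p = 0.13), by TMM. TEX261, above ADD2, had 0.03 (SE 0.056, adjusted p = 0.67) and -0.17 (SE 0.056, adjusted p = 0.021) by TMM. GXYLT1 above MUC19, TNFSF13B and IRS2 beside MYO16, ENSG00000229229 below ADD2 and SDHAP1 below TFRC had neither call.

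The genes whose log2 CPM was most like each of the 6 were sought among 13545 genes with a mean of at least 1 CPM, over the 12 libraries, which fall into 4 groups. MYO16 was second in likeness to RELN and RELN second to MYO16 (Pearson's r 0.989). The others were ENSG00000231863 (0.990) and DMXL2 (0.988) for RELN, and STRIP2 (0.989) and METAP1D (0.987) for MYO16. TFRC correlated with RELN at 0.944 and with MYO16 at 0.935, and OSBPL6 with MUC19 at 0.927 but with TFRC at 0.384. The genes most like MUC19 were GLUL (0.997), IL16 (0.995) and TBX15 (0.992). Over the 4 groups in the order above, GLUL ran at 445, 459, 652 and 597 CPM and IL16 at 3.24, 4.38, 64.1 and 39.8 CPM. A high r thus describes a like shape over the groups and not a like size of change. The genes most like OSBPL6 were PEAK1 (0.993), ZNF609 (0.993) and NPTXR (0.992). HS3ST3A1 and PKP4 (both 0.988) and CTSH (0.980) were most like ADD2, and SAMD4B (0.980), GPR161 (0.9751) and NSD1 (0.9748) were most like TFRC. The correlations describe levels across the 4 groups and carry no test.

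The other genes of each pathway moved in both directions by TMM, the scale of the fold changes given for them. Over all genes 22.2% were called higher and 20.7% lower in KO cells, and 5.52% had both calls. With the hairpin 18.5% were called higher and 16.3% lower in KO cells, and 20.4% and 19.2% in WT cells. Under ERCC scaling 15959 of 17936 genes were called higher and 222 lower in KO cells. With the hairpin it gave 6869 higher and 1055 lower in KO cells, and 15437 and 38 in WT cells. The counts of the 6 lists stand beside these shares and were not tested against them. In the reelin pathway (receptors, adaptors and kinases), 17 of 18 genes were tested, DAB1, the adaptor, was not, and 0 of the 17 were higher in KO cells and lowered by the KD. There 4 rose and 5 fell in KO cells by TMM (median -0.01, all genes 0.0045) and 17 rose under ERCC scaling with its median shift of 1.26, and 6 rose and 3 fell with the hairpin in KO cells (median 0.13) by TMM, against 12 and 1 under ERCC scaling. SRC, a kinase of the pathway, rose with the hairpin in KO cells by 0.67 (SE 0.080), and FYN, its relative, had -0.55 (SE 0.046) in KO cells by TMM and 0.71 under ERCC scaling. MAPT, which encodes tau, had 1.17 (SE 0.219) in KO cells, and NOTCH1 had 0.66 with the hairpin there. Of the 20 mucin and mucin-like genes besides MUC19 7 were tested, 3 rose and 3 fell in KO cells by TMM, against 6 and 1 under ERCC scaling, and MUC1, a membrane mucin, was the only one with both calls (0.42, SE 0.095, and -0.9997, SE 0.097). In KO cells MUC3A had 1.25 by TMM and 2.51 by ERCC scaling, MCAM -0.90 and 0.36, and CD164 -0.43 and 0.82. Of 18 unconventional myosins tested 0 had both calls, with 4 higher and 6 lower in KO cells by TMM and 17 higher and 0 lower under ERCC scaling. MYO6, the myosin that walks towards the minus end of actin, rose in KO cells by 2.45 (SE 0.090) and had -0.14 (SE 0.078, adjusted p = 0.19) with the hairpin there. MYO3B had 1.03 in KO cells and 1.02 with the hairpin there, MYO5B had 0.93 with the hairpin in KO cells, and MYO1F had -0.82 in KO cells by TMM and 0.44 by ERCC scaling.

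Of 25 genes of adducins and the red cell membrane skeleton 6 rose and 12 fell in KO cells by TMM (median -0.16), against 23 and 2 under ERCC scaling, and by TMM 3, SPTAN1, SPTB and TPM1, had both calls. SLC4A1, the anion exchanger band 3, fell in KO cells (-2.87, SE 0.152), as did DMTN, dematin (-1.89, SE 0.064), under both scalings. EPB42, protein band 4.2, had 1.20 with the hairpin in KO cells. ADD2 thus rose where, by TMM, more of its list fell. Of 19 genes of iron uptake and storage 7 rose and 6 fell in KO cells by TMM (median 0.06), against 19 and 0 under ERCC scaling, and by TMM 3, TF, TFR2 and SLC39A14, had both calls. TF, the iron carrier that TFRC binds, rose by 0.24 (SE 0.079) and then fell with the hairpin (-1.24, SE 0.083), and SLC39A14, a metal importer, rose by 0.65 (SE 0.037) and fell (-0.22, SE 0.037, or -0.03 with adjusted p = 0.57 under ERCC scaling). IREB2, an RNA-binding protein that stabilises TFRC mRNA, rose in KO cells by 0.67 (SE 0.055) and had 0.01 (SE 0.053) with the hairpin there. HFE had 0.58 (SE 0.206) in KO cells. Of 12 genes of the oxysterol-binding protein family 2 rose and 2 fell in KO cells by TMM, against 12 and 0 under ERCC scaling, and 0 had both calls. OSBPL3 fell with the hairpin in KO cells (-0.85, SE 0.057) and had -0.48 (SE 0.056) in WT cells by TMM and 0.66 under ERCC scaling. OSBPL10 had 0.93 in KO cells, OSBP2 had -0.44 with the hairpin there, and OSBPL2 had -0.19 in KO cells by TMM and 1.07 by ERCC scaling. With the hairpin in WT cells, by TMM, 8 rose and 1 fell of 17 reelin pathway genes, 2 and 2 of 7 mucins, 7 and 3 of 18 myosins, 8 and 7 of 25 membrane skeleton genes, 9 and 4 of 19 iron genes, and 5 and 2 of 12 oxysterol-binding protein genes. Under ERCC scaling 0 fell in any of the 6 lists, and 16 of the 18 myosins and all tested genes of the other lists rose. Of all 17936 genes 15437 were called higher and 38 lower there.

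Markers of other cell types were low in the K-562 libraries. Of 10 lymphocyte markers 2 averaged at least 1 CPM in each group, and their sum was 8.03 to 17.8 CPM over the 12 libraries. Of 11 monocyte markers 3 or 4 did, with sums of 120 to 132 CPM in TET2WT-shControl and 154 to 177 CPM in the other groups. Of 10 fibroblast markers 1 or 2 did. Their sum was 1.92 to 2.30 CPM in TET2WT-shControl, 10.6 to 12.1 in TET2WT-shMBD6, 4.14 to 5.06 in TET2KO-shControl and 6.08 to 7.45 in TET2KO-shMBD6. The low sums of these markers thus differed between groups. The part of these cell-type markers in the results was not tested.

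Mouse genes of the same names were read in lineage-negative, KIT-positive (LK) bone marrow cells of mice aged 6 to 8 weeks, in libraries that played no part in the choice. There, total RNA of Tet2 WT and Tet2 KO cells and of cells given an antisense oligonucleotide by electroporation, either a control (ASO NC) or one against IAP, an endogenous retrovirus (ASO IAP), was sequenced in 3 libraries per group. The sample titles name no Tet2 genotype for the ASO cells. Tet2 had 89.4, 92.2 and 95.9 CPM in WT and 23.4, 32.3 and 26.5 CPM in KO libraries. Of the 6 genes Reln, Add2 and Tfrc passed the filter on low counts in the Tet2 experiment, where Muc19, Myo16 and Osbpl6 had 0 to 6 counts per library. Of these 3 genes 0 were called by edgeR or by DESeq2, against 6.44% of all genes called by edgeR, and 1, Reln, was under 0.05 before adjustment. Reln had 0.871, 0.923 and 0.933 CPM in WT and 0.590, 0.450 and 0.672 CPM in KO libraries, from 25 to 64 counts, which did not overlap (log2 -0.67, SE 0.247, adjusted p = 0.15). The direction was the opposite of that in K-562. Tfrc had 423, 386 and 372 CPM in WT and 430, 277 and 291 CPM in KO libraries (log2 -0.24, SE 0.154, adjusted p = 0.40). Add2 had 165, 155 and 132 CPM in WT and 132, 92.3 and 174 CPM in KO libraries (log2 -0.18, SE 0.200, adjusted p = 0.66). Without Tet2 KO replicate 1 Tfrc was called lower (-0.47, adjusted p = 0.016), and without Tet2 KO replicate 2 Add2 stood at 0.03. The 95% intervals, -0.60 to 0.11 for Tfrc and -0.63 to 0.28 for Add2, left out gains of the size in K-562 cells.

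In the ASO experiment Tet2 had 174 to 177 CPM with ASO NC and 131 to 136 CPM with ASO IAP (log2 -0.39, SE 0.034, adjusted p = 1.5e-10 by edgeR). Tfrc had 384, 425 and 429 CPM with ASO NC and 659, 667 and 665 CPM with ASO IAP. The groups did not overlap, and Tfrc was 1.61-fold higher with ASO IAP (log2 0.68, SE 0.033, adjusted p = 2.2e-16 by edgeR), in a comparison in which 39.6% of all genes were called. Add2 was far lower there than in the Tet2 experiment, which was normalised apart, at 1.64, 1.07 and 0.939 CPM with ASO NC and 1.68, 1.80 and 1.44 CPM with ASO IAP (log2 0.44, SE 0.255, adjusted p = 0.19), and it was called without ASO NC replicate 1 (0.71, adjusted p = 0.037). Reln had 0 counts in all 3 ASO NC libraries and 0 to 4 with ASO IAP, and Muc19, Myo16 and Osbpl6 had 0 to 6 counts per library and were not tested. Erythroid markers were low there, with 8 of 14 averaging at least 1 CPM in each group. Of 13 tested 7 were called higher and 0 lower, beside 3273 higher and 3255 lower of 16483 genes. The sum of 14 was 25.8 to 26.5 CPM with ASO NC and 37.5 to 41.2 CPM with ASO IAP, with Slc4a1 at 0 in all 6 libraries. Their part in the rise of Tfrc was not tested. In the Tet2 experiment the sum was 1384 to 1747 CPM in WT and 1279 to 2079 CPM in KO libraries, with 0 of 14 called higher and 1 lower.

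**Figure D4:**
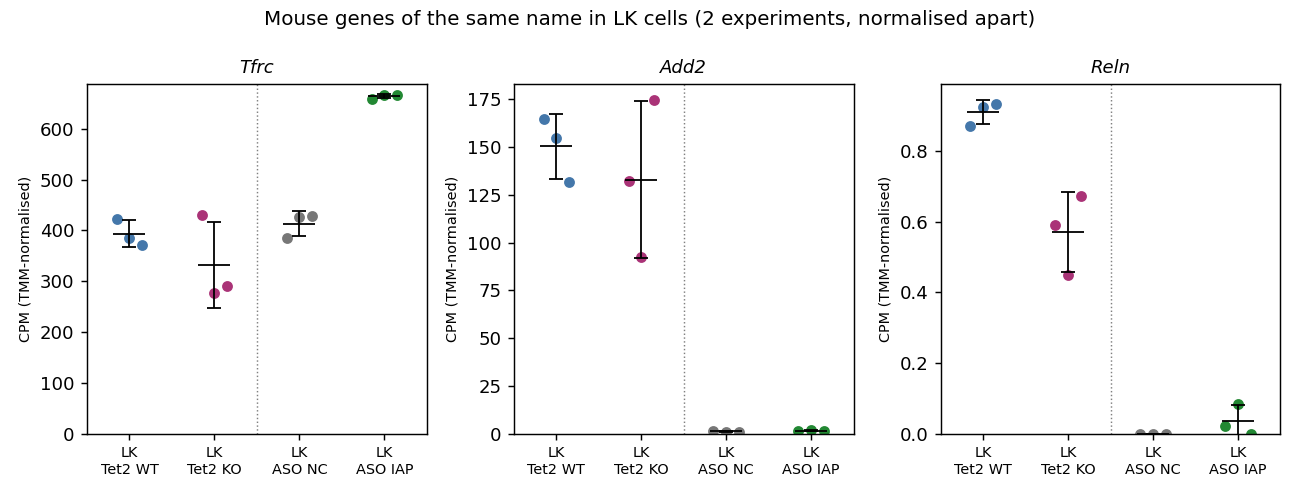
Level (CPM, linear y axes from 0) of Tfrc, Add2 and Reln in 12 LK libraries, as points by group with the mean and SD of 3 libraries in black. The dotted line parts 2 experiments that were normalised apart, and the 3 ASO IAP libraries of Tfrc stood at 659 to 667 CPM, above the 3 ASO NC libraries.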

How the data were processed

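The deposited files hold raw read counts per gene and library. The authors trimmed reads with Trimmomatic 0.39, aligned them with HISAT2 2.2.1 to hg38 with the ERCC sequences or to mm10, and counted them with HTSeq 0.12.4 on GENCODE release 29 (human) or M19 (mouse). Whether strand was used in counting is not stated. Their methods call genes with DESeq2 at P under 0.05, with a factor from the spike-in reads in its size factors. Here TMM is the main scale and ERCC scaling an alternative. The labels name hairpins for the K-562 samples and the sample sheet of the study names siRNAs, and the labels were followed for names. The 12 K-562 libraries were fitted together and the 2 LK experiments apart, with edgeR 4.0.16 under R 4.3.3 (filterByExpr, TMM, glmQLFit and glmQLFTest), and an adjusted p under 0.05 over all genes as the threshold. Rows naming no gene and the 92 ERCC rows stayed out of library sizes. Intervals are 95% intervals of the fit. The step was tested on simulated data with 200 genes changed 2-fold, of which 81.5% were recovered for the hairpin in WT K-562 cells (17313 genes) and 77.0% for LK Tet2 KO (17266 genes). Likeness used log2 of CPM plus 0.5. Positions, lengths and start sites came from GENCODE 44. The genes, the lists and the tests were chosen with earlier results of these data known. Genes were named by fixed rules: all 6 genes, their nearest tested neighbours, the 3 most alike genes each, and up to 4 list genes with the largest change, of which some are not reported here. Other genes with both calls were named because 3 or fewer were counted. The common biological coefficient of variation was 0.062 in K-562, 0.160 in LK Tet2 and 0.047 in LK ASO libraries. Alternatives were DESeq2 1.42.0, its size factors, no filter, ERCC scaling, the replicate block, only the 6 libraries compared, and leaving out each library.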

Additional observations from a re-analysis of the deposited data

Results flagged for a closer look

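MUC19 and ADD2 moved in opposite directions with the MBD6 hairpin in the 2 genotypes, in every library. The difference of the log2 effects, KO less WT, was -1.69 for MUC19 and -0.96 for ADD2. All 4 groups had a part in the choice of the genes or in the comparison, so the difference was not tested. Under ERCC scaling MUC19 had 1.58 and ADD2 1.31 in WT cells, where the median gene had 1.13. There 15437 of 17936 genes were called higher, so a rise in WT cells was nearly given by that scale. In KO cells MUC19 had -1.07 and ADD2 -0.61, beside a median of 0.18.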

How the results depend on the processing

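Over 692 fold changes of single genes recomputed under the alternatives, 656 kept their direction and their side of the threshold. ERCC scaling, which adds the shift of the median gene, raised the count of all genes called to 16181 for KO against WT under shControl, 15475 for the hairpin in WT cells, 16523 for TET2KO-shMBD6 against TET2WT-shControl and 13321 for the interaction. It gave 1 of the 6 genes higher with the hairpin in KO cells, 5 higher and 0 lower with the hairpin in WT cells, where RELN turned to 0.45, MYO16 to 0.13 and TFRC to 1.01, and 0 lower in TET2KO-shMBD6 against TET2WT-shControl, where TFRC turned to 1.31. Of all 17936 genes it gave 6869 higher, 15437 higher and 38 lower, and 150 lower in these comparisons, in that order. TFRC was near 0 between genotypes under shMBD6 and changed sign with DESeq2 size factors (-0.0032), DESeq2 (-0.0033), no filter (-0.0146) and only the 6 libraries compared (-0.0053), with a range of -0.023 to 0.011 on leaving out each library. MYO16 was as near 0 in TET2KO-shMBD6 against TET2WT-shControl, at -0.0012 with no filter, -0.0035 with only the 6 libraries compared and -0.023 to 0.052 on leaving out each library. ERCC scaling gave 1.45 for MYO16 and 1.61 for RELN in that comparison, beside a median shift of 1.44. LK Tet2 KO called 1126 genes in all, 2010 with DESeq2, 1815 with no filter, and 215 to 1127 on leaving out each library (354, 215 and 259 when WT replicate 1, 2 or 3, in that order, was left out). There 0 to 1 of the tested genes was called lower (Tfrc, -0.47, without KO replicate 1) and Add2 ran from -0.41 to 0.027 on leaving out each library, and with ASO IAP 1 to 2 were called higher (Add2, 0.71, without ASO NC replicate 1). With the replicate number as a block LK Tet2 KO called 358 genes. Same-numbered libraries correlated at -0.028 to 0.017 in K-562, -0.14 to -0.044 in LK Tet2 and 0.0167 to 0.053 in LK ASO. Libraries of other numbers correlated at -0.033 to 0.031, -0.032 to 0.158 and -0.047 to 0.0162, in that order. Every same-numbered pair thus lay above the others in LK ASO only, and whether the numbers pair those libraries is not known. The block changed no other call given here. The causes of these changes were not tested, apart from the shift that ERCC scaling makes. Muc19, Myo16 and Osbpl6 had 0 to 6 counts per LK Tet2 library and did not pass the filter.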
